A study of Macaca mulatta with 81 samples.

Results

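The Janus kinases JAK1, JAK2 and JAK3 and the transcription factors STAT3, STAT4, STAT5A, STAT5B and STAT6 are described here across the groups of a macaque transplant study. Of these 8 genes, 7 had a probe set that the gene table of the array assigned to that gene alone, and STAT4 is not analysed here. These 7 genes had 15 probe sets, out of 14127 genes and 52865 probe sets in all. For each gene the probe set with the highest mean over all 81 arrays was used, and any others served as a check. STAT3, JAK1 and STAT5A had a single probe set each, so there was no such check for them. The measure is messenger RNA, given as the log2 signal of a probe set, so 1 unit is a 2-fold difference. Phosphorylation and protein were not measured. Signals of different probe sets are not on a common scale, so levels are compared between groups and not between genes.

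JAK kinases are bound to the tails of cytokine receptors. When a cytokine joins the receptor chains, the kinases are activated and phosphorylate STAT proteins, which move to the nucleus and switch on target genes, among them the SOCS genes and CISH that shut the pathway down again. In T cells JAK1 and JAK3 serve interleukin-2 and its relatives, JAK2 serves interferon gamma, interleukin-12 and interleukin-23, STAT5A and STAT5B carry the growth signal of interleukin-2, interleukin-7 and interleukin-15, STAT3 that of interleukin-6, interleukin-10 and interleukin-21, and STAT6 that of interleukin-4. In graft-versus-host disease, in which T cells of the graft attack the recipient, drugs that block JAK1 and JAK2 are in clinical use.

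T cells sorted on CD3 from the blood of rhesus macaques gave 47 arrays from 27 animals after hematopoietic cell transplant and 34 arrays from healthy controls (Healthy.Control), 50 animals in all with 11 in both sets. Autologous recipients received their own cells and no prophylaxis (Auto.D14, n = 3; Auto.D36, n = 3). Allogeneic recipients received no prophylaxis (NoRx.F, n = 4), Siro (Siro.F, n = 4), Tac with Mtx (Tac.Mtx.D14, n = 3; Tac.Mtx.D30, n = 2; Tac.Mtx.F, n = 3), Bela (Bela.F, n = 3), Bela with Siro (Bela.Siro.D14, n = 3; Bela.Siro.D30, n = 3; Bela.Siro.F, n = 2), FR104 (FR104.D14, n = 3; FR104.F, n = 3) or FR104 with Siro (FR104.Siro.D14, n = 4; FR104.Siro.F, n = 4). The labels do not spell out these names. Siro, Tac, Mtx and Bela are taken to be sirolimus, tacrolimus, methotrexate and belatacept, and FR104 is known as an antibody fragment against CD28. D14, D30 and D36 name the day after transplant and F carries no day. One Bela.Siro.D30 array was from day 29, and in FR104.Siro.D14 the labelled days were 14, 14, 22 and 34. Ages and conditioning are not given in the labels used here.

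Array medians lay between 5.12 and 5.31, and all 7 genes were above the threshold of 4.65 for a measured gene in all 81 arrays. Of 8 markers of T cells only CD5, CD6 and CD28 are named in the gene table, and the CD3 chains are not among them. The mean of these 3 in an array ran from 7.73 to 8.88, which does not measure the purity of the sort. They did not move as one: in Auto.D36 CD6 was higher than in healthy controls by 1.19 (limma adjusted p = 0.0022) and CD5 lower by -0.52 (0.0495). Of 10 erythroid and platelet markers 8 are named. Their healthy means ran from 3.40 for AHSP to 10.65 for PF4, with PPBP at 9.70. The 4 labelled batches were tied to the groups. The Auto and FR104 groups lay in batch 4 with 6 healthy controls, the Tac.Mtx and Bela groups in batch 3 with 13, and NoRx.F and Siro.F in batches 1 and 2 with 5 and 10. For a group inside a single batch the fitted difference from healthy controls is therefore the difference from the controls of that batch, and differences between groups of unlike batches pass through their controls. In bulk samples, fewer cells of a type and less RNA per cell cannot be told apart.

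A control for RNA length on the array, the signal of actin probes at the 3' end of the transcript minus that at the 5' end, differed between groups and moved with several of the genes. It was 1.31 ± 0.68 in healthy controls (SD, n = 34), with a range of 0.43 to 3.83. It was lowest in Auto.D36, from -0.34 to -0.30, below every healthy array, and 2 of these 3 arrays shared the value -0.34. The means were 0.14 in FR104.D14, 0.25 in FR104.F, 0.52 in FR104.Siro.F, 0.72 in FR104.Siro.D14 and 0.85 in NoRx.F, and in the other 9 transplant groups 1.05 to 1.83. Across the 16 group means it ran opposite to STAT3 (Pearson r = -0.912), JAK1 (-0.872), STAT5A (-0.827) and JAK3 (-0.697) and with STAT6 (0.708) and STAT5B (0.519), while JAK2 gave -0.194. These points share batches and animals and are a description.

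The same relation was examined within the 34 healthy controls, where no treatment differs, a check added after the data were seen. STAT3 had r = -0.65 with the actin signal (rho = -0.633; adjusted p = 0.00028 by a permutation test, 2-sided, adjusted over 7 genes), and r = -0.615 without the 2 arrays farthest from the median. Within batches 2, 3 and 4 it was -0.556, -0.502 and -0.789, and batch 1 held too few controls. JAK1 had r = -0.472 (rho = -0.546, adjusted permutation p = 0.0111; -0.549 without the 2 farthest; -0.348, -0.597 and -0.518 within batches). JAK3 had r = -0.545 (rho = -0.47, adjusted permutation p = 0.00399), which fell to -0.328 without the 2 farthest arrays and was -0.884, -0.0599 and -0.887 within batches, so in batch 3 the relation did not hold. STAT5A (-0.212), STAT5B (-0.137), STAT6 (0.269) and JAK2 (-0.0157) did not pass, with adjusted permutation p of 0.322, 0.513, 0.215 and 0.928. Of 11803 genes tested, 140 (1.19%) had a lower r than STAT3. The groups with the lowest actin means were Auto.D36 and the FR104 groups. In them the part of RNA length in a difference cannot be told apart from that of transplant or treatment.

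**Figure D1:**
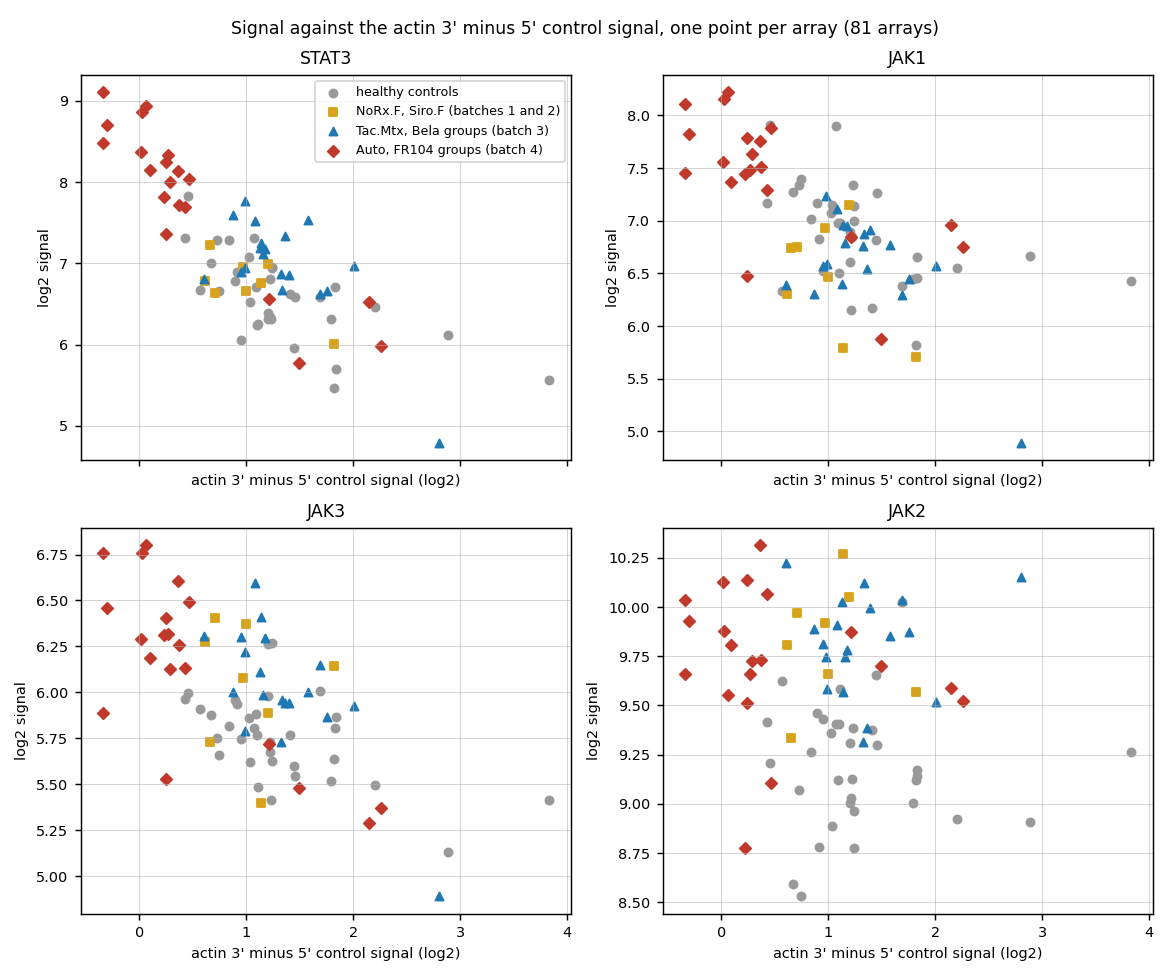
Log2 signal of STAT3, JAK1, JAK3 and JAK2 (vertical axes) against the actin 3' minus 5' control signal (horizontal axes, log2), 1 point for each of the 81 arrays, with healthy controls in grey and transplant groups coloured by batch. STAT3, JAK1 and JAK3 are high where the actin signal is low, and JAK2 shows no such slope.

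The first question was how transplanted animals differed from healthy controls. In the fit over all groups, 17 of 105 tests of the 7 genes in 15 groups passed at an adjusted p under 0.05, 13 higher and 4 lower, and 44 had an unadjusted p under 0.05. JAK2 accounted for 7, STAT3 and STAT6 for 4 each, and STAT5A and JAK3 for 1 each. By group, 4 of the 7 genes passed in Auto.D36, where 16.7% of all genes did. In FR104.F 3 of 7 passed, against 10.7% of all genes, and in FR104.Siro.F 3 of 7, against 10.1%. In FR104.D14 2 of 7 passed, against 5.36%. In NoRx.F 2 of 7 passed, in which 35.4% of all genes did, so the share of the 7 genes was no higher than that of all genes. A single gene, JAK2, passed in Siro.F (14.6% of all genes), Tac.Mtx.F (14.1%) and Bela.Siro.D30 (7.18%). None passed in the other 7 groups, in which 4.4% (Auto.D14), 1.46% (Tac.Mtx.D14), 3.44% (Tac.Mtx.D30), 17.6% (Bela.F), 2.51% (Bela.Siro.D14), 2.83% (Bela.Siro.F) and 18.2% (FR104.Siro.D14) of all genes did. At an unadjusted p under 0.05 these 7 groups had 3, 1, 1, 2, 1, 1 and 3 of the 7 genes. The shares of all genes given here and below are at the adjusted threshold. They are not the background of counts at an unadjusted p, for which no share is given. The median difference of the 7 genes was 0.61 in Auto.D36 and -0.20 in NoRx.F, against -0.01 and 0.05 over all genes tested. The 15 comparisons share their controls and are not independent.

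**Figure D2:**
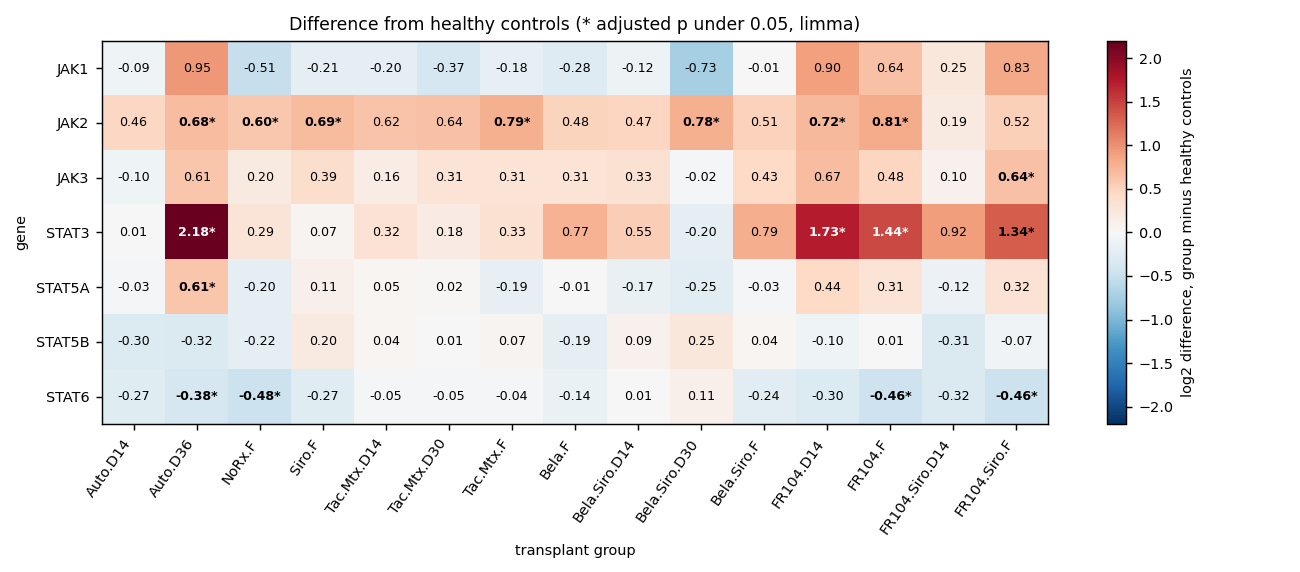
Log2 difference from healthy controls for 7 genes (rows) in 15 transplant groups (columns), from the limma fit over all 81 arrays; red is higher and blue lower than healthy, and an asterisk marks an adjusted p under 0.05. The JAK2 row is positive throughout, the STAT3 row is strongest in Auto.D36 (2.18) and the FR104 groups, and the STAT6 row is mostly negative.

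Among the kinases, JAK2 was the gene that differed from healthy controls in the most groups. Its healthy signal ran from 8.53 through a median of 9.19 to 10.03, and the healthy mean ranked 16 of 16 groups. The 3 FR104.F arrays had 10.06, 10.14 and 9.81, the 3 Tac.Mtx.F arrays 9.997, 10.22 and 9.74, and the 3 Bela.Siro.D30 arrays 9.75, 10.04 and 10.15. The 4 Siro.F arrays had 9.92, 9.57, 10.05 and 9.97, and the 4 NoRx.F arrays 9.34, 9.66, 10.27 and 9.81. All 17 of these arrays lay above the healthy median and 7 above the healthy maximum, and each of these groups overlapped the healthy range. The 3 Auto.D36 arrays had 9.66, 10.04 and 9.93, and the 3 FR104.D14 arrays 10.13, 9.88 and 9.73.

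JAK2 was higher than in healthy controls by 0.81 ± 0.22 in FR104.F (SE; limma adjusted p = 0.01), 0.79 ± 0.20 in Tac.Mtx.F (0.0048), 0.78 ± 0.20 in Bela.Siro.D30 (0.009) and 0.72 ± 0.22 in FR104.D14 (0.0363). It was higher by 0.69 ± 0.18 in Siro.F (adjusted p = 0.0036), 0.68 ± 0.22 in Auto.D36 (0.0223) and 0.60 ± 0.18 in NoRx.F (0.0074). The difference was positive in all 15 groups, from 0.19 in FR104.Siro.D14 upward, and in the 8 that did not pass the adjusted p ran from 0.0824 in Bela.F to 0.525 in FR104.Siro.D14. Of the 7 calls, 6 were lost without 1 array: NoRx.F (replicate 52, 0.44), Tac.Mtx.F (replicate 20, 0.67), Auto.D36 (replicate 201, 0.60, or 202, 0.66), Bela.Siro.D30 (replicate 42, 0.75, or 49, 0.69), FR104.D14 (replicate 22, 0.61, or 23, 0.73) and FR104.F (replicate 22, 0.78, or 23, 0.74). Siro.F kept its call without any 1 of its 4 arrays, but lost it with the mean of the JAK2 probe sets (0.31, adjusted p = 0.0748). With that mean the differences were 0.14 to 0.54, the other 6 calls were kept and FR104.Siro.F passed (0.44, 0.0308). Bela.F and FR104.Siro.F passed without replicate 57 (0.63, adjusted p = 0.0482) and replicate 29 (0.72, 0.0239). Within batch 2 alone NoRx.F and Siro.F were 0.62 and 0.75 above the controls, and within batch 1 alone 0.57 and 0.62, of which only Siro.F in batch 2 passed. In batch 2 NoRx.F is 1 array, so its spread there was taken from the remaining arrays of the batch.

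With the actin signal as a covariate the JAK2 differences were nearly the same, from 0.19 to 0.82 over the 15 groups. The 5 calls in NoRx.F (0.60), Siro.F (0.69), Tac.Mtx.F (0.79), Bela.Siro.D30 (0.77) and FR104.F (0.82) were kept, and those in Auto.D36 (0.69) and FR104.D14 (0.73) had adjusted p of 0.0799 and 0.074. Monocyte and myeloid markers, of which 10 of 12 are named, were also higher in many groups: the mean of the list was 4.84 to 7.38 in healthy arrays, 6.20 to 8.24 in NoRx.F, 6.16 to 7.27 in Siro.F, 6.10 to 7.65 in Tac.Mtx.F, 6.44 to 8.23 in Bela.Siro.D30 and 6.40 to 7.86 in FR104.F. The healthy means of its genes ran from 3.45 for S100A12 to 7.66 for LYZ, and only S100A12 was below the threshold for a measured gene. In Auto.D36 the list ran from 5.35 to 6.72, and 0 of its 10 genes passed. In FR104.D14, also with a JAK2 call, it ran from 6.80 to 6.94. The highest group means of the list were 7.98 in Bela.Siro.F, 7.88 in Bela.F and 7.65 in Bela.Siro.D14, groups without a JAK2 call. The part of such cells in the JAK2 differences was not tested.

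Another probe set of JAK2, MmugDNA.97.1.S1_at, was likewise higher in 15 of 15 groups, by 0.29 to 1.00. It passed, adjusted over all 19885 probe sets tested, in FR104.F (1.00 ± 0.31), FR104.D14 (0.98), FR104.Siro.F (0.93) and Auto.D36 (0.87), and its group means had r = 0.534 with those of the probe set used (MmuSTS.737.1.S1_at). The last, MmugDNA.15589.1.S1_at, of lower signal (mean 5.83 against 9.54), did not follow: its differences were -0.25 to 0.16 and none passed.

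**Figure D3:**
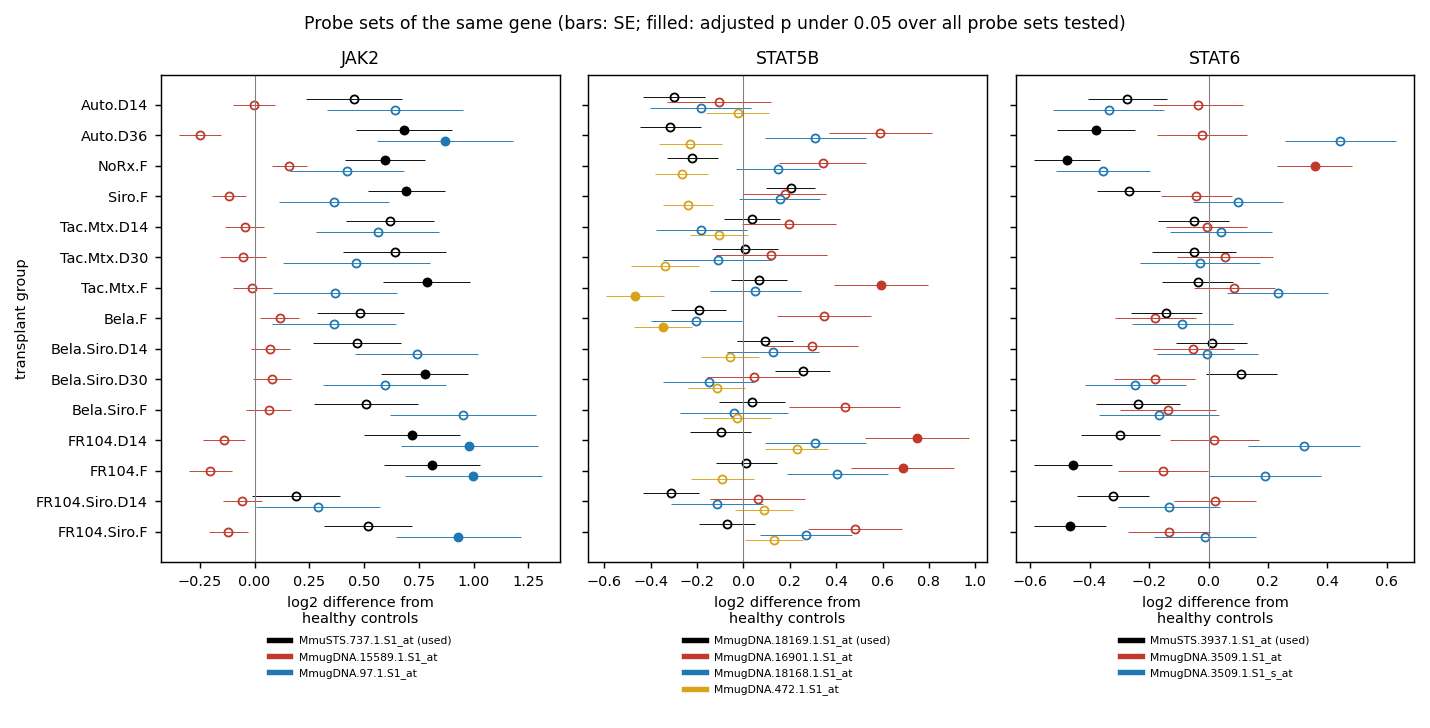
Log2 difference from healthy controls (horizontal axis, bars are SE) in 15 transplant groups for each probe set of JAK2, STAT5B and STAT6, with filled points at an adjusted p under 0.05 over all probe sets tested. A pair of JAK2 probe sets lies above 0 in every group, whereas the probe sets of STAT5B and of STAT6 disagree in sign.

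JAK1, the partner of most cytokine receptors of T cells, passed in no group against healthy controls. Healthy arrays ran from 5.82 through 6.87 to 7.91. The 3 Auto.D36 arrays had 7.45, 8.11 and 7.83, the 3 FR104.D14 arrays 7.56, 8.16 and 7.51 and the 4 FR104.Siro.F arrays 6.84, 7.76, 8.22 and 7.88. All but the array at 6.84, FR104.Siro.F replicate 26, lay above the healthy median, in the upper part of the healthy range or beyond it. The differences were 0.95 in Auto.D36 (limma adjusted p = 0.0521), 0.90 in FR104.D14 (0.129) and 0.83 in FR104.Siro.F (0.089). With the animal as a block, the Auto.D36 difference was 1.03 with an adjusted p of 0.019. Without FR104.Siro.F replicate 26, whose actin signal of 1.21 was the highest of its group, FR104.Siro.F was 1.11 above healthy controls with an adjusted p of 0.028. The lowest JAK1 value of all arrays, 4.89, was in Bela.Siro.D30 replicate 49, whose actin signal was 2.80. That group was at -0.73 (adjusted p = 0.158), and at -1.28 with an adjusted p of 0.0114 without replicate 38. In NoRx.F the 4 arrays had 6.74, 6.47, 5.79 and 6.30, of which 5.79 lay below the healthy range, and the difference was -0.51 (adjusted p = 0.181); with the actin signal as a covariate it was -0.70 ± 0.26 with an adjusted p of 0.0291.

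JAK3, which pairs with the common gamma chain of the interleukin-2 receptor family, passed in FR104.Siro.F. The 4 arrays had 5.72, 6.61, 6.80 and 6.49, against 5.13, a median of 5.77 and 6.27 in healthy controls, so 3 lay above the healthy range and replicate 26 within it. The difference was 0.64 (limma adjusted p = 0.0394). It missed the threshold without replicate 27 (0.57), 28 (0.51) or 29 (0.61), and with the actin signal as a covariate it was 0.40 (adjusted p = 0.183). In FR104.D14 the difference was 0.67 (adjusted p = 0.075; 0.69 and 0.0454 with the animal as a block), and in Auto.D36 it was 0.61 (0.0614; 0.59 and 0.0429 with the block). The value was positive in 13 of 15 groups. Another JAK3 probe set was below 4.65 in all arrays and was not used.

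Among the transcription factors, STAT3 had the largest differences of the 7 genes. Healthy arrays ran from 5.46 through a median of 6.61 to 7.83. The 3 Auto.D36 arrays, at 8.48, 9.11 and 8.70, all lay above the healthy range, as did 2 of 3 arrays of FR104.D14 (8.37, 8.86 and 7.72) and of FR104.F (7.69, 8.24 and 8.15) and 3 of 4 of FR104.Siro.F (6.56, 8.14, 8.94 and 8.04). In NoRx.F the arrays had 7.22, 6.66, 6.76 and 6.78 and in Siro.F 6.96, 6.0, 6.99 and 6.63, near the healthy median. The lowest array of all, at 4.79, was again Bela.Siro.D30 replicate 49.

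STAT3 rose by 2.18 ± 0.43 in Auto.D36 (limma adjusted p = 0.00019), which is 4.53-fold, by 1.73 ± 0.43 in FR104.D14 (0.0073), 1.44 ± 0.43 in FR104.F (0.0183) and 1.34 ± 0.39 in FR104.Siro.F (0.0174). FR104.Siro.D14 was at 0.92 (adjusted p = 0.0825), and at 1.25 with an adjusted p of 0.0339 without replicate 26, whose actin signal was 2.15. All of these groups lay in batch 4, and against its 6 controls alone, with a fit on that batch, only Auto.D36 passed, the FR104.D14, FR104.F and FR104.Siro.F adjusted p being 0.0753, 0.105 and 0.102 at the same differences. The FR104.D14 call was lost without replicate 23 (1.46), the FR104.Siro.F call without replicate 27 (1.26) or 28 (1.00), and the FR104.F call without any 1 of its arrays (1.34 to 1.61). The Auto.D36 call was kept without any 1 of its arrays.

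With the actin signal as a covariate, the STAT3 difference was 1.06 ± 0.34 in Auto.D36 (adjusted p = 0.0499), less than the 2.18 without it. It was 0.93 in FR104.D14, 0.72 in FR104.F and 0.80 in FR104.Siro.F, with adjusted p of 0.109, 0.188 and 0.0785. In Bela.Siro.D30 it moved from -0.20 to 0.16, neither of which passed. The lowest healthy actin signal was 0.430. All arrays of Auto.D36, FR104.D14 (0.017 to 0.373) and FR104.F (0.095 to 0.425) lay below it. So did some arrays of FR104.Siro.D14 (from 0.226) and FR104.Siro.F (from 0.061). In these groups the covariate reaches beyond the controls, for every gene. Within Auto.D14 the array with the lowest actin signal had the highest STAT3 signal, 8.0 at an actin signal of 0.29 in replicate 200. The other 2 were not in that order, with 5.78 at 1.49 in replicate 201 and 5.99 at 2.26 in replicate 202.

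**Figure D4:**
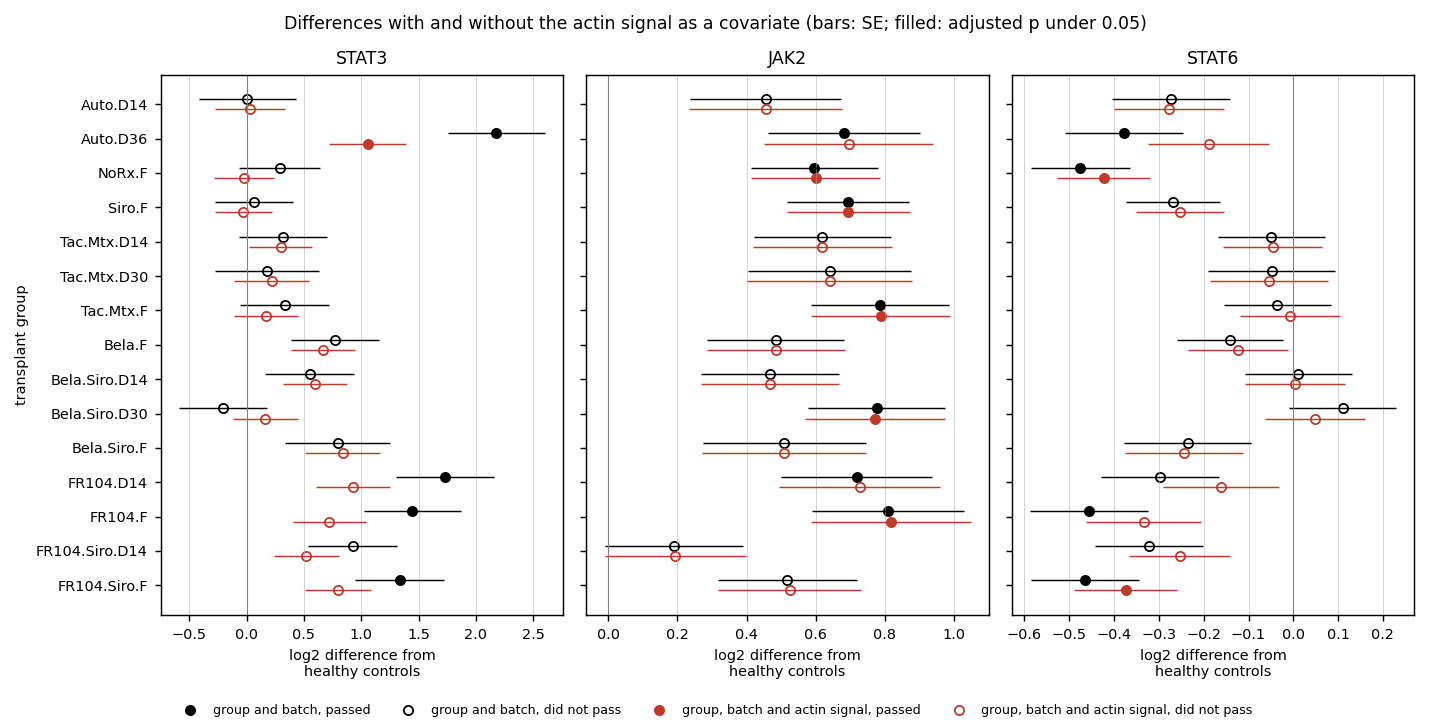
Log2 difference from healthy controls (horizontal axis, bars are SE) in 15 transplant groups for STAT3, JAK2 and STAT6, from the fit with group and batch (black) and with the actin 3' minus 5' signal added (red), with filled points at an adjusted p under 0.05. The STAT3 difference in Auto.D36 goes from 2.18 to 1.06 when the covariate is added, and the JAK2 differences move little.

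STAT5A and STAT5B, a pair of related factors activated by interleukin-2, overlap in the RefSeq gene table of another macaque assembly (T2T-MMU8v2.0), where STAT5B, STAT5A and STAT3 lie side by side. STAT5A passed in Auto.D36, whose arrays had 7.07, 7.59 and 7.48 against 6.18, a median of 6.73 and 7.42 in healthy controls. Of these, 2 lay above the healthy range, and the difference was 0.61 (limma adjusted p = 0.0305). It was 0.51 without replicate 201 and 0.56 without replicate 202, neither of which passed, and 0.34 with the actin signal as a covariate (adjusted p = 0.421). In FR104.D14 it was 0.44 (adjusted p = 0.227), and 0.75 with an adjusted p of 0.0407 without replicate 24.

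STAT5B passed in no group against healthy controls, whose arrays ran from 9.77 through 10.05 to 10.38. The largest negative values were -0.32 in Auto.D36 (limma adjusted p = 0.09), -0.31 in FR104.Siro.D14 (0.0572) and -0.30 in Auto.D14 (0.193), and the largest positive was 0.25 in Bela.Siro.D30 (0.196). Without Auto.D36 replicate 202 the value was -0.48 with an adjusted p of 0.0213, and without Bela.Siro.D30 replicate 38 it was 0.44 with an adjusted p of 0.0222. The other 3 probe sets of STAT5B did not follow the one used: their group means had r of -0.102, -0.0015 and -0.026 with it. MmugDNA.16901.1.S1_at was higher and passed in FR104.D14, FR104.F and Tac.Mtx.F, by up to 0.75, and MmugDNA.472.1.S1_at was lower and passed in Tac.Mtx.F and Bela.F, by -0.47 and -0.35. The data therefore give no single direction for STAT5B.

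STAT6, which carries interleukin-4 signals, was lower in 4 groups with the probe set used. The 4 NoRx.F arrays had 9.66, 9.47, 9.46 and 9.62, against 9.64, a median of 10.02 and 10.43 in healthy controls, and 3 lay below the healthy range. The 3 FR104.F arrays had 9.49, 9.63 and 9.67, the 4 FR104.Siro.F arrays 9.74, 9.64, 9.34 and 9.64 and the 3 Auto.D36 arrays 9.78, 9.48 and 9.77. Of these, 2, 2 and 1 lay below the healthy range, and the others inside it and below the healthy median. STAT6 was at -0.48 ± 0.11 in NoRx.F (limma adjusted p = 0.00035), -0.46 ± 0.12 in FR104.Siro.F (0.0072), -0.46 ± 0.13 in FR104.F (0.0157) and -0.38 ± 0.13 in Auto.D36 (0.037). FR104.Siro.D14 was at -0.32 (adjusted p = 0.051; 0.0429 with the animal as a block, and -0.43 with 0.021 without replicate 26), and 13 of 15 groups had negative values.

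Markers of other lymphocytes moved in these groups and also in groups without a STAT6 call. Of the NK cell markers, 4 of 6 are named, and KLRF1, a receptor of NK cells, was lower by -2.72 in NoRx.F (limma adjusted p = 0.0018), -3.16 in FR104.F (0.0104) and -2.60 in FR104.Siro.F (0.0229), the only call of the list in these groups, and was at 0.42 in Auto.D36 (0.816). The mean of the NK list was 8.17 to 10.88 in healthy arrays, 8.73 to 9.52 in NoRx.F, 8.08 to 10.43 in FR104.F, 7.91 to 9.32 in FR104.Siro.F and 8.68 to 10.72 in Auto.D36. Of the B cell markers, 6 of 8 are named, and the list mean was 5.18 to 6.29 in healthy arrays and 5.15 to 5.78 in these 4 groups. CD79B, of the B cell receptor, was higher by 0.94 in NoRx.F, 0.79 in FR104.F and 0.96 in FR104.Siro.F, and MS4A1, which encodes CD20, was lower by -1.80 in FR104.F, -1.39 in FR104.Siro.F and -1.66 in Auto.D36, where BLK was lower too (-0.51), all of which passed. KLRC1 of the NK list was at 1.08 in NoRx.F, 1.87 in FR104.F, 0.38 in FR104.Siro.F and -1.24 in Auto.D36, none of which passed. In groups without a STAT6 call, CD79B passed in Bela.F (1.09), Siro.F (0.73) and FR104.Siro.D14 (0.88). MS4A1 passed in Auto.D14 (-1.81), FR104.D14 (-1.81) and FR104.Siro.D14 (-1.50), and KLRF1 in FR104.Siro.D14 (-2.19). The part of such cells in the STAT6 differences was not tested.

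The STAT6 call in NoRx.F was kept without any 1 of its arrays and with the actin signal as a covariate (-0.42, adjusted p = 0.00073), as was that in FR104.Siro.F with the covariate (-0.37, 0.0339). With it FR104.F was at -0.33 (0.109) and Auto.D36 at -0.19 (0.494). Without 1 array the FR104.F call (replicate 22, -0.40), the FR104.Siro.F call (replicate 28, -0.38) and the Auto.D36 call (replicate 200, -0.43; 201, -0.28; 202, -0.42) were lost. The other 2 STAT6 probe sets did not pass as lower in any of the 15 groups. In NoRx.F MmugDNA.3509.1.S1_at was higher by 0.36 ± 0.13 (adjusted p = 0.0225 over probe sets) and MmugDNA.3509.1.S1_s_at was at -0.35 (0.0772). In Auto.D36 they were at -0.02 and 0.44, and in FR104.Siro.F at -0.13 and -0.01, none of which passed. With the mean of the 3 probe sets no STAT6 difference from healthy controls passed, and that in Auto.D36 was 0.01. The calls are thus those of 1 of 3 probe sets. In NoRx.F MmugDNA.3509.1.S1_s_at was lower as well, without passing. In the RefSeq gene table STAT6 overlaps the next gene, NAB2.

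**Figure D5:**
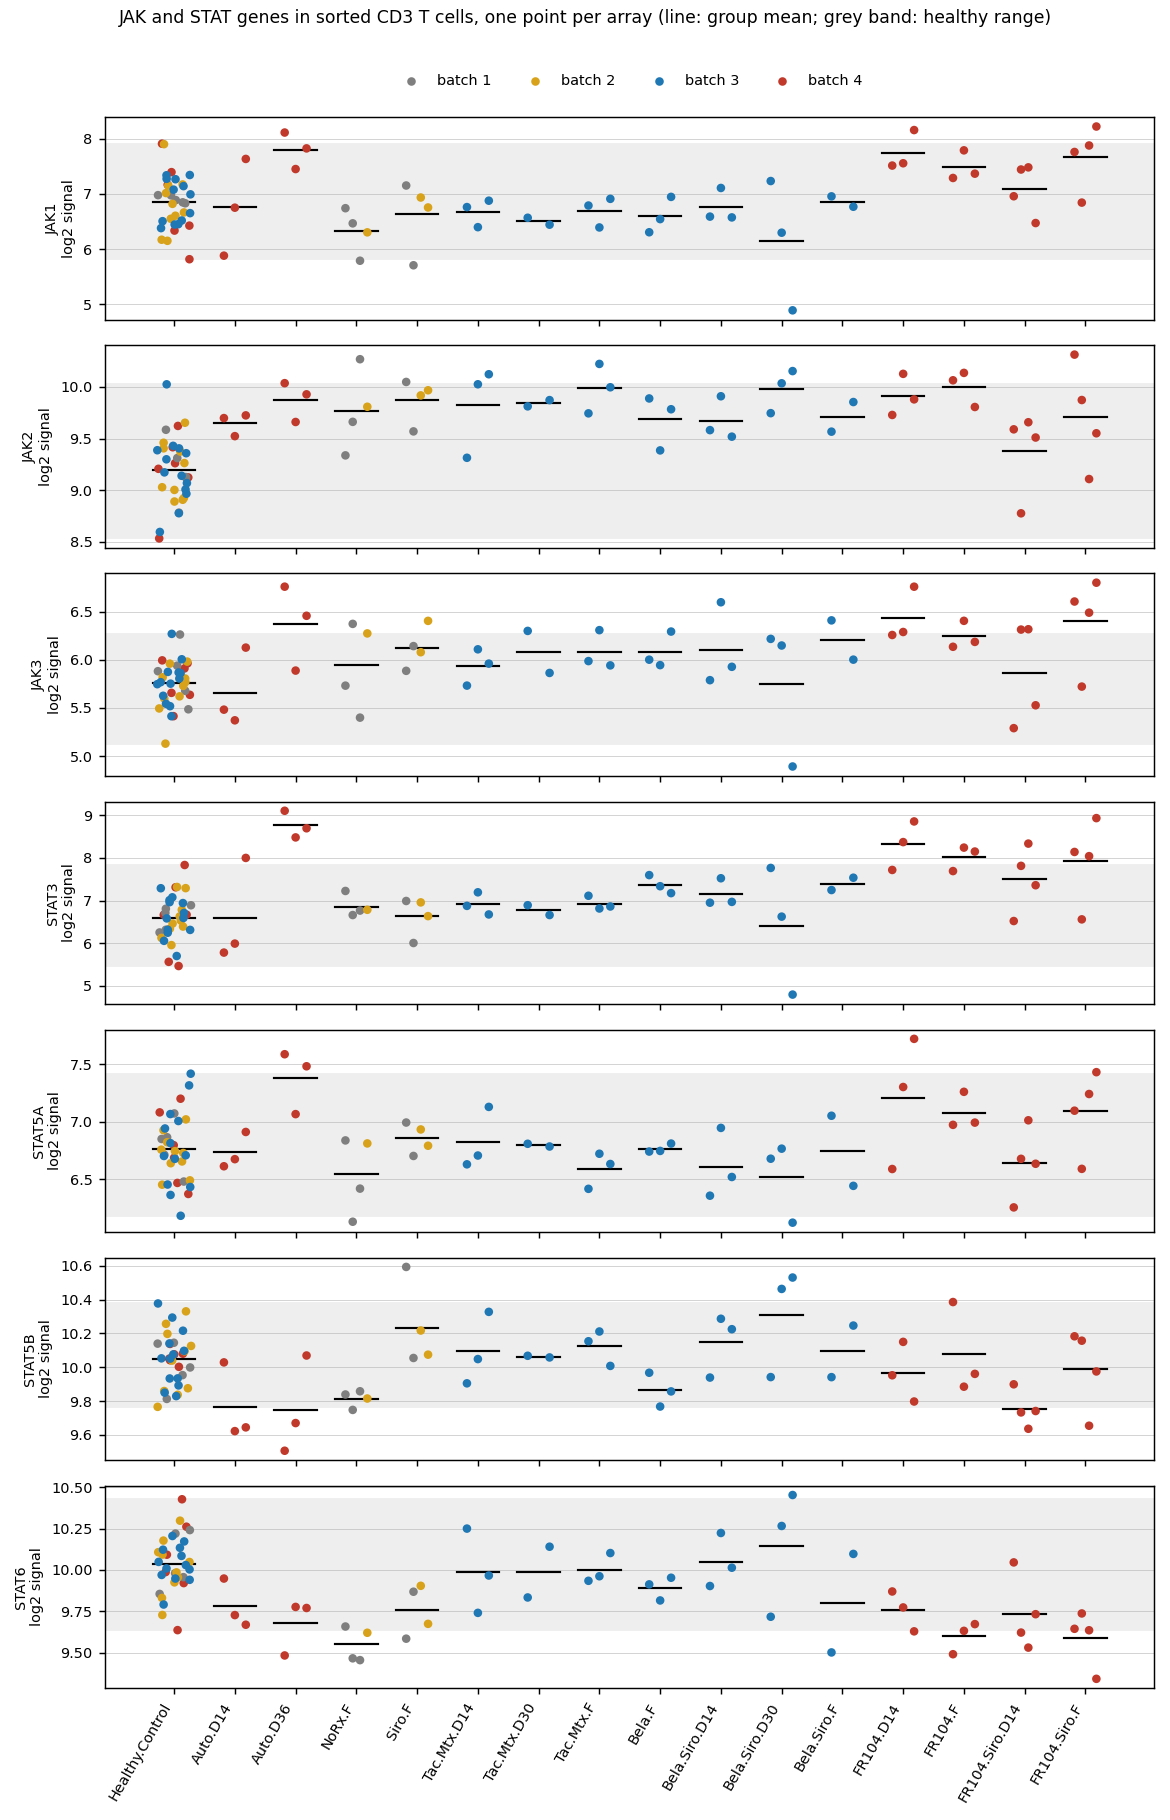
Log2 signal (vertical axes) of 7 genes in the 16 groups, 1 point for each array coloured by batch, with a line at the group mean and a grey band over the range of the 34 healthy controls. All 3 Auto.D36 arrays of STAT3 lie above the band, 3 of the 4 NoRx.F arrays of STAT6 lie below it, and JAK2 arrays lie mostly above the healthy mean.

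In the order of group means, STAT3 was highest in Auto.D36 (8.76 ± 0.32, SD), FR104.D14 (8.32 ± 0.57) and FR104.F (8.03 ± 0.30), and for each of the 7 genes the arrays of all 15 pairs of neighbours in that order overlapped. Over the 16 group means STAT3 ran with JAK1 (r = 0.902), STAT5A (0.83) and JAK3 (0.805), and STAT5A with JAK1 (0.878), the genes that also ran opposite to the actin signal. STAT6 ran opposite to STAT3 (-0.576), and JAK2 was close to none of the others (-0.0836 to 0.437). The genes closest to STAT3 were TMEM259, EIF3L and SERINC5 (r = 0.917, 0.909 and 0.902), and those closest to JAK1 were TM9SF3, ZBTB8OS and NUDT3 (0.944, 0.92 and 0.916). PPP1R21, ATF2 and ZNF267 were closest to STAT5A (0.909, 0.892 and 0.885), LARP1B, UBE2R2 and UBE3C to STAT5B (0.895, 0.836 and 0.823) and ATP13A2, WBP1 and ANKS1A to STAT6 (0.945, 0.942 and 0.938). RUNDC3B, NECTIN2 and NPDC1 were closest to JAK2 (0.817, 0.793 and 0.782), and JAK3 was closest to CD4, the coreceptor of helper T cells (0.857), CDK6 (0.806) and RASA3 (0.799). Each r is over 16 groups that share batches and animals.

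The next question was how each prophylaxis differed from none. Of 42 tests in the 6 final groups against NoRx.F, 2 passed, both higher, and 7 had an unadjusted p under 0.05. STAT5B passed in Siro.F, where 12.1% of all genes did: the 4 Siro.F arrays had 10.22, 10.05, 10.59 and 10.07, all above the 9.84, 9.75, 9.86 and 9.81 of NoRx.F. The difference was 0.42 ± 0.13 (limma adjusted p = 0.0252), and with the mean of the 4 probe sets 0.07 (0.764). The other 3 probe sets gave 0.03, 0.01 and -0.16. The call was also lost without NoRx.F replicate 50 (0.43) or 51 (0.40) or Siro.F replicate 17 (0.29), and within batch 1 (0.51, adjusted p = 0.0891) and batch 2 (0.33, 0.72) alone, the last with 1 NoRx.F array.

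JAK1 passed in FR104.Siro.F against NoRx.F, where 19.6% of all genes did. All 4 FR104.Siro.F arrays (6.84 to 8.22) lay above the highest NoRx.F array (6.74), and the difference was 1.35 ± 0.44 (limma adjusted p = 0.0214), or 1.21 ± 0.38 (0.0171) with the actin signal as a covariate. It was 1.16 without FR104.Siro.F replicate 28 and 1.18 without NoRx.F replicate 52, neither of which passed. FR104.F was at 1.15 (adjusted p = 0.111), with all 3 of its arrays above NoRx.F, and STAT3 was at 1.16 (0.196) and 1.05 (0.162) in FR104.F and FR104.Siro.F. Without FR104.Siro.F replicate 26 the latter was 1.5 with an adjusted p of 0.0329. No gene passed in Tac.Mtx.F, Bela.F, Bela.Siro.F or FR104.F, in which 6.95%, 1.86%, 7.75% and 7.66% of all genes did, and 1, 1, 0 and 2 of the 7 genes had an unadjusted p under 0.05. JAK2, higher than healthy in NoRx.F as well, was within -0.11 to 0.21 of NoRx.F in all 6 groups. NoRx.F lay in batches 1 and 2, and only Siro.F shared a batch with it. The actin signal was 0.61 to 1.14 in NoRx.F and 0.06 to 1.21 in FR104.Siro.F.

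NoRx.F was also set against autologous recipients. Against Auto.D36, where 8.4% of all genes passed, 3 of 7 genes passed, and all 3 were lower in NoRx.F: STAT3 by -1.89 ± 0.55 (limma adjusted p = 0.0225), JAK1 by -1.47 ± 0.46 (0.0347) and STAT5A by -0.81 ± 0.27 (0.0478). For each of them all 4 NoRx.F arrays lay below all 3 Auto.D36 arrays. With the actin signal, 0.61 to 1.14 in NoRx.F and -0.34 to -0.30 in Auto.D36, as a covariate, the differences were -1.08, -0.98 and -0.61, with adjusted p of 0.106, 0.154 and 0.165. Without Auto.D36 replicate 201 all 3 were lost (-1.72, -1.31 and -0.70), and likewise without replicate 202 (-1.92, -1.45 and -0.76). JAK1 was also lost without NoRx.F replicate 52 (-1.30), and STAT5A without NoRx.F replicate 51 (-0.68) or 52 (-0.77). Against Auto.D14 none passed, adjusted or not (3.33% of all genes), and STAT3 was at 0.28. CD6, the T cell marker, was at -1.52 in NoRx.F against Auto.D36 (0.0063), and its part was not tested. STAT5A also missed the threshold with no filter on low values (-0.81, 0.0553) and with only the compared groups and healthy controls in the fit (-0.81, 0.0503). The groups shared no batch.

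Adding Siro to FR104 or to Bela gave no difference that passed in any of 14 tests with limma, also at an unadjusted p under 0.05, against 0.00847% and 0.458% of all genes. The largest value was JAK2 in FR104.Siro.F against FR104.F, at -0.29 ± 0.24, and JAK1 was at 0.19 ± 0.38 there and at 0.26 ± 0.46 in Bela.Siro.F against Bela.F. The difference between the effects of adding Siro to FR104 and to Bela did not pass an interaction test for any of the 7 genes (unadjusted p 0.16 to 0.926). Its SE ran from 0.22 in STAT5B to 0.72 in STAT3, so large differences could be missed. The change from day 14 to the final sample did not pass a test of the difference between FR104.Siro and FR104 for any of them, with the lowest unadjusted p, 0.0421, in JAK3.

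Over time, 1 of 35 tests passed and 6 had an unadjusted p under 0.05. STAT3 was higher at Auto.D36 than at Auto.D14 by 2.17 ± 0.49 (limma adjusted p = 0.0111; 0.974% of all genes passed), with all 3 day 36 arrays above all 3 from day 14. It was higher in each of the 3 animals, by the values above: 8.48 against 8.0 in animal 200, 9.11 against 5.78 in animal 201 and 8.70 against 5.99 in animal 202. With the actin signal as a covariate it was 1.02 (adjusted p = 0.782). The call was also lost without Auto.D14 replicate 201 (1.77) or 202 (1.87) and without Auto.D36 replicate 201 (2.00). Without Auto.D14 replicate 200, JAK1 and JAK3 were higher at day 36 by 1.48 (0.0367) and 0.94 (0.0477). No gene passed in Tac.Mtx, FR104, Bela.Siro or FR104.Siro over time, where 0%, 0%, 0.00847% and 3.1% of all genes did and 0, 0, 0 and 2 of the 7 had an unadjusted p under 0.05.

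The receptors, inhibitors, targets and cytokines of the pathway were taken from lists. The shares of all genes called against healthy controls were 35.4% in NoRx.F, 14.6% in Siro.F, 16.7% in Auto.D36, 10.7% in FR104.F and 10.1% in FR104.Siro.F, which is the background of the list counts. Of 14 receptor chains tested in NoRx.F, 3 were higher and 4 lower than in healthy controls: IL2RA, the alpha chain of the interleukin-2 receptor, rose by 1.2 ± 0.25 (limma adjusted p = 6.6e-05) and IL12RB1, of the interleukin-12 receptor, by 0.61 ± 0.14, while IL6R, the interleukin-6 receptor, fell by 2.41 ± 0.25 (4.2e-12) and IL4R, the interleukin-4 receptor, by 0.90 ± 0.23. The median of the list was 0.04, against 0.05 over all genes. In Auto.D36 2 of 14 rose, IL12RB1 by 1.16 ± 0.16 and IL10RB, of the interleukin-10 receptor, by 1.49 ± 0.35, and IL6R fell by 1.27 ± 0.30. In FR104.F 2 of 14 rose, IL2RA by 1.00 ± 0.30 and IL12RB1 by 0.50 ± 0.16. In FR104.Siro.F IL2RA rose by 1.09 ± 0.27 and IL12RB1 by 0.44 ± 0.15, and IL10RA fell by 0.98 ± 0.19. Against NoRx.F, IL6R was higher by 1.92 ± 0.30 in Siro.F and by 2.15 ± 0.37 in FR104.Siro.F. Of the other kinases and STATs, TYK2 and STAT2 were tested, and STAT2 rose in FR104.D14 (0.59 ± 0.15, adjusted p = 0.011), the only call of the pair in 15 groups.

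Of 16 inhibitors of the pathway tested, 1 was higher and 4 lower in NoRx.F than in healthy controls, a share no higher than the 35.4% of all genes: PTPN6, the phosphatase SHP-1, rose by 0.70 ± 0.13, and PIAS1, which binds STAT proteins, fell by 0.95 ± 0.14 (limma adjusted p = 9.9e-08), as did CISH by 1.25 ± 0.32 and PTPRC, which encodes CD45, by 0.23 ± 0.06. In FR104.F 4 rose and none fell: SOCS2 by 2.56 ± 0.62, CISH by 1.48 ± 0.38, SOCS3 by 1.07 ± 0.29 and PTPN11, the phosphatase SHP-2, by 0.44 ± 0.11. In FR104.Siro.F 3 rose and none fell, SOCS2 by 3.87 ± 0.57, SOCS3 by 1.89 ± 0.26 and CISH by 1.55 ± 0.35, and in Auto.D36 1 rose, SOCS3, by 0.85 ± 0.29. The medians of the list were -0.13, 0.19, 0.02 and 0.10 in these 4 groups.

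Known STAT target genes, 19 tested, had 3 higher and 3 lower in NoRx.F, 2 and 2 in Auto.D36, 7 and 0 in FR104.F, and 7 and 2 in FR104.Siro.F, with medians of -0.02, 0.09, 0.40 and 0.48 against 0.05, -0.01, -0.03 and -0.02 over all genes. The share called in NoRx.F was no higher than the 35.4% of all genes, and that in Auto.D36 was near the 16.7%. In NoRx.F BATF, a factor of effector T cells, rose by 1.51 ± 0.20 (limma adjusted p = 8.2e-09) and MYC fell by 1.48 ± 0.29. In Auto.D36 IRF1, an interferon response factor, rose by 0.78 ± 0.21, and MYC and GATA3 fell by 1.46 ± 0.34 and 0.73 ± 0.22. In FR104.Siro.F PIM1, a kinase induced by STAT5, rose by 1.11 ± 0.15 (2.1e-07) and BCL2, a survival factor, by 1.05 ± 0.19. In FR104.F PIM1 rose by 0.74 ± 0.16 and OSM by 1.37 ± 0.31. SOCS2, SOCS3, CISH, OSM and IL2RA are in more than 1 of these lists. Monocyte and myeloid markers passed, all higher, in 4 of 10 cases in NoRx.F, 2 in FR104.F, 3 in FR104.Siro.F and 0 in Auto.D36, and their part in the list counts was not tested.

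Cytokines that signal through JAKs, 12 tested, had 1 higher and 3 lower in NoRx.F, a share no higher than the 35.4% of all genes, where IL2 fell by 0.49 ± 0.10 and IL7 and IL15 by 1.59 ± 0.47 and 0.69 ± 0.22, and IL10 rose by 0.93 ± 0.34. In Siro.F 5 rose and none fell, where 14.6% of all genes passed, led by LIF (0.58 ± 0.11), IL4 (0.62 ± 0.16), IL21 (0.71 ± 0.21) and OSM (0.83 ± 0.25, a cytokine of the interleukin-6 family). In Auto.D36 IL21 rose by 0.79 ± 0.26 and IL4 by 0.56 ± 0.20. In FR104.F 2 rose, OSM and IL21 (0.86 ± 0.26), and in FR104.Siro.F OSM rose by 1.54 ± 0.28 and IL22 by 0.53 ± 0.15 while IL4 fell by 0.57 ± 0.18.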

How the data were processed

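The authors deposited 1 log2 signal for each probe set and array, computed by RMA in affy, per the submitters' processing notes, with no versions given; the RNA was labelled by the 3' IVT Plus protocol, per the labels' protocols. No genome build or sequence is given in the sources used here. Among healthy controls an F test between batches had a p above 0.95 for 61.02% of probe sets. The values thus look adjusted for batch before deposit, by a method not stated, and spread may be understated.

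The gene table named 25330 probe sets (24969 with 1 gene, 361 with several, 27535 unnamed here); 16 symbols, JAK1 among them (listed as JAK-1), were updated through RefSeq synonyms. A gene was tested if 2 or more arrays exceeded 4.65, which is the 40th percentile over the whole table; 11803 genes were. The tool was limma 3.58.1 in R 4.3.3 (statmod 1.5.0): lmFit over the 81 arrays, with terms for the group and the batch, 62 residual degrees of freedom, eBayes with a trend, and Benjamini-Hochberg adjustment within each of 30 comparisons, called at an adjusted p under 0.05. All tests are 2-sided. Groups and animals came from the labels. The number of arrays in a group limits the precision.

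The members and lists were chosen with earlier results of these data known. All members are named in every comparison, list genes only among the 4 smallest adjusted p of a list, and the 3 genes most correlated with each member. Replicate numbers are animals: pairs of arrays of an animal, after group means were removed, had correlations of 0.21 to 0.66 over time, 0.18 to 0.34 between autologous and own healthy arrays and -0.19 to 0.18 between allogeneic and own healthy arrays. The animal was tried as a random block (correlation 0.194). Other alternatives were no batch term, each batch alone, no filter, the mean of probe sets, quantile normalization once more, a fit on the compared groups plus healthy controls, day 14 arrays only, arrays above the healthy maximum of the mean of 69 spike-in probe sets left out, the actin covariate and each transplant array left out. On simulated data built on 3 comparisons, NoRx.F against healthy controls, FR104.F against healthy controls and FR104.Siro.F against NoRx.F (11803 genes each), 92, 88 and 77 of 100 genes given a change of 1 log2 unit were found, and 10 of 164, 2 of 131 and 3 of 94 calls were false. Other genes were given a smaller change. The simulated noise was independent between arrays and genes, with no batch or animal effect. These rates do not apply to differences under 1 log2 unit.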

Additional observations from a re-analysis of the deposited data

Results flagged for a closer look

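JAK2 in FR104.Siro.D14 had a sample far from the others: replicate 29, taken on day 22, had a log2 signal of 8.78, and the other 3 arrays had 9.51 to 9.66. This was 1 of 28 combinations of gene and group of at least 4 and at most 10 arrays that were examined, and chance flags about 1 in 20. FR104.Siro.D14 was 0.19 above healthy controls in JAK2, the lowest of the 15 groups, and with only the day 14 arrays of the group the lowest was 0.43.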

How the results depend on the processing

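Of the 7 genes in 15 groups against healthy controls, 17 differences passed, and 19 to 23 or 14 passed with renewed quantile normalization (19), spike-in arrays left out (20), the animal as a replicate block (21), only the groups compared (23) or the mean of probe sets (14). Without a batch term 31 passed, and with the actin signal as a covariate 9. Shares of all genes called under these settings are not given here. A change in a count need not be particular to the 7 genes. Within single batches, over the groups each holds, 1 of 3 calls was made in batch 1, 1 of 3 in batch 2, 2 of 2 in batch 3 and 4 of 12 in batch 4. The calls lost in batch 4 alone were those of STAT3 in FR104.D14, FR104.F and FR104.Siro.F and STAT5A in Auto.D36. STAT6 in Auto.D36 and FR104.F, JAK2 in FR104.D14 and JAK3 in FR104.Siro.F were lost there too. Against no prophylaxis 2 passed, 6 without a batch term and 1 with the mean of probe sets, and for Siro.F 0 in batch 1 and 0 in batch 2. Against autologous recipients 3 passed, 2 with no filter on low values or with only the groups compared, and 0 with the actin covariate. Over time 1 passed, and 0 with the actin covariate, with batch 4 alone or with spike-in arrays left out. Without 1 array in turn the counts were 14 to 22, 1 to 3, 0 to 3 and 0 to 3, and with Siro added 0 to 0. A group of 2 then has 1 array, assumed to vary like the others. A sign changed for STAT6 in Auto.D36, 0.0146 with the mean of probe sets. The replicate block added 4 calls against healthy controls and changed no other call. Probe sets of JAK2, STAT5B and STAT6 that disagree, and controls of 5 to 13 arrays in a batch, limit what can be read from these signals. So does the single probe set of each of STAT3, JAK1 and STAT5A.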
